A study of Saccharomyces cerevisiae with 5 samples.

Results

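The thioredoxins, thioredoxin reductases and peroxiredoxins of budding yeast (Saccharomyces cerevisiae) were followed through a transfer to high glucose. The 10 genes were chosen by name as the thioredoxins TRX1, TRX2 and TRX3, the reductases TRR1 and TRR2, and the peroxiredoxins TSA1, TSA2, AHP1, PRX1 and DOT5, out of 6205 open reading frames (ORFs) on the arrays. Each had 1 spot and was found by its ORF identifier. Overnight cultures in YP, a rich medium, held 2% glucose. They were brought to OD600 0.1 in fresh YP that contained either 20% or 2% glucose, and cells were harvested 1 hour afterwards, per the labels and the design text. RNA of both media was hybridised together on each of 5 two-colour arrays, with 20% glucose in Cy5 on 2 arrays (2 and 5) and in Cy3 on 3 (1, 3 and 4). The sources at hand do not state the strain. Nothing in the labels says that the arrays came from separate cultures, so every p-value here refers to array-to-array spread, which could be purely technical.

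Peroxiredoxins reduce hydrogen peroxide and organic peroxides with a reactive cysteine, which is oxidised in the process. Thioredoxin, a small protein with a redox-active pair of cysteines, reduces it again and is in turn reduced by thioredoxin reductase with electrons from NADPH. Yeast runs this chain in the cytosol (Trx1, Trx2, Trr1, Tsa1, Tsa2, Ahp1) and in mitochondria (Trx3, Trr2, Prx1), and Dot5 is a nuclear peroxiredoxin. Several genes of the cytosolic chain are known targets of the peroxide-responsive transcription factors Yap1 and Skn7.

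All values are log2 ratios, RNA labelled 20% divided by RNA labelled 2% glucose, so a positive value means more RNA under the 20% label. This direction rests on the dye labels, and genes with a known response to high glucose ran against it. GPD1, the glycerol 3-phosphate dehydrogenase induced in high osmolarity, was at -3.96 ± 0.97 (SE, adjusted p = 0.0733), and HXT1, a glucose-induced hexose transporter, was at -2.54 ± 0.26 (adjusted p = 0.0294). HXT2, a hexose transporter that glucose represses, stood at 2.26 ± 0.15 (adjusted p = 0.00924). Without 1 array the adjusted p lay between 0.0797 and 0.236 for GPD1, between 0.0327 and 0.134 for HXT1, which passed in 1 of 5 fits, and between 0.0146 and 0.092 for HXT2, which passed in 3. The signs were kept in all 5. An exchange of the dye labels would turn all signs given here, which is why samples are named by their label. The arrays held 5362 to 5792 genes with a value each, with medians between -0.0106 and -0.0024.

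The arrays fell into 2 sets. Across genes, which are not independent replicates, the ratios of arrays 4 and 5 correlated at r = 0.951 and those of arrays 1 to 3 at 0.597 to 0.861. Between the sets r lay between 0.256 and 0.374. Deposited scanner files were available here for arrays 4 and 5. The sets are therefore given side by side for each gene, arrays 4 and 5 before arrays 1 to 3.

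Over the 5 arrays all 10 genes had positive estimates, with a median of 0.27, where the median of all 5447 genes tested was 0.00 and 50.4% of them were positive. Only TSA1 passed the threshold, an adjusted p under 0.05 in limma, a linear model fitted to every gene on the arrays with a dye term. That is 1 of 10 genes, where 3.69% of all genes tested passed in either direction, 2.24% as higher and 1.45% as lower. Without the dye term TSA1 and TSA2 passed, where 16.9% of all genes did, 8.5% as higher and 8.37% as lower. TSA1, TSA2, TRR1 and TRR2 were above 0 on all 5 arrays, 4 of the 9 genes with 5 values, as were 16.7% of all genes with 5 values. An unadjusted p under 0.05 was reached by the same 4 of 10 genes and by 28.5% of all genes tested.

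**Figure D1:**
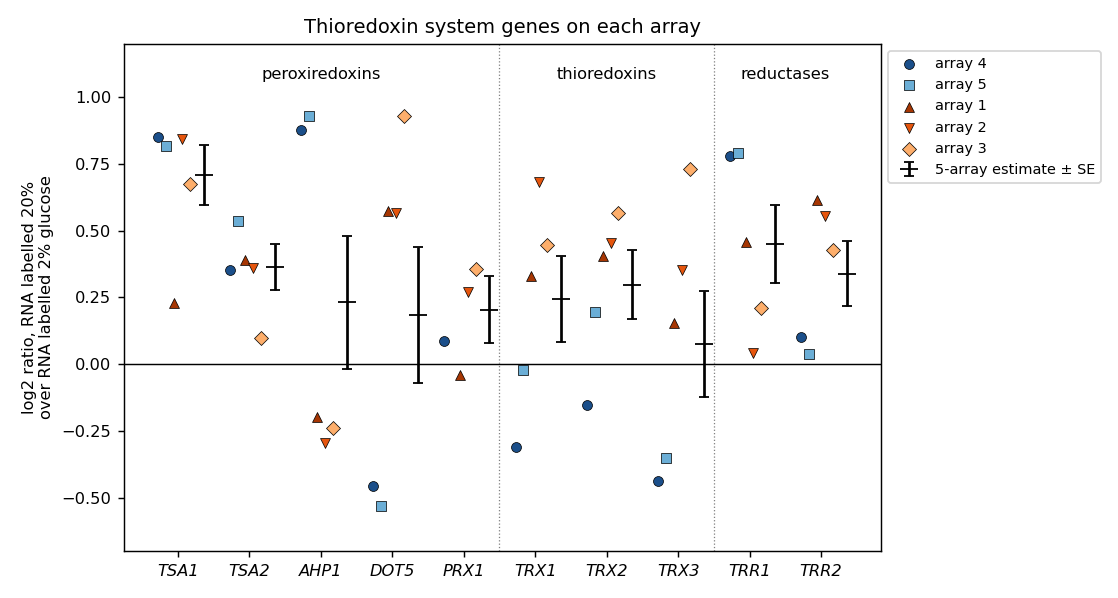
Log2 ratio, RNA labelled 20% divided by RNA labelled 2% glucose, for each of the 10 genes on each array (points), with the 5-array limma estimate and its SE (black). TSA1, TSA2, TRR1 and TRR2 lie above 0 on every array, whereas AHP1, DOT5, TRX1 and TRX3 lie on opposite sides of 0 in arrays 4 and 5 and in arrays 1 to 3.

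The cytosolic peroxiredoxins differed in how steadily they moved. TSA1, the main peroxiredoxin of the cytosol and also a chaperone, had log2 ratios of 0.85 and 0.82 on arrays 4 and 5 and of 0.23, 0.84 and 0.68 on arrays 1, 2 and 3. It was higher in the RNA labelled 20% on 5 of 5 arrays, and 4 of them lay close together while array 1 was lower. TSA1 rose 1.63-fold in the RNA labelled 20% (log2 change 0.71 ± 0.11, SE, adjusted p = 0.043). The call rests on all arrays being present: leaving out any 1 of arrays 1 to 5 gave estimates of 0.64 to 0.80 with an adjusted p between 0.0588 and 0.183. With ratios taken from the scanner intensities of arrays 4 and 5 the estimate was 0.78 and the adjusted p was 0.0513.

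TSA2, the close paralog of TSA1, which is scarcer and known to respond to peroxide, had ratios of 0.35 and 0.54 on arrays 4 and 5 and of 0.39, 0.36 and 0.10 on arrays 1, 2 and 3. All were positive and the sets overlapped. Its estimate of 0.36 ± 0.09 (SE, 95% interval 0.15 to 0.58) did not pass over all genes (adjusted p = 0.0703). AHP1, a cytosolic peroxiredoxin with a preference for alkyl hydroperoxides, had ratios of 0.88 and 0.93 on arrays 4 and 5 but of -0.20, -0.30 and -0.24 on arrays 1, 2 and 3. The sets did not overlap, as for 58.9% of all genes with 5 values, and had opposite signs. The signs of AHP1 were shared by 8.82% of such genes. The 5-array estimate of AHP1, 0.23 ± 0.25 (SE, adjusted p = 0.573), is a mean of these opposite values. Spots of similar paralogs such as TSA1 and TSA2, TRX1 and TRX2, or TRR1 and TRR2 may take up signal of both, which was not tested.

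The nuclear and mitochondrial peroxiredoxins did not share a pattern. DOT5, the nuclear enzyme, had ratios of -0.46 and -0.53 on arrays 4 and 5 and of 0.57, 0.57 and 0.93 on arrays 1, 2 and 3, the reverse of AHP1. Its estimate over the 5 arrays was 0.18 ± 0.25 (SE, adjusted p = 0.673). PRX1, the mitochondrial peroxiredoxin, had a ratio of 0.09 on array 4 and of -0.04, 0.27 and 0.36 on arrays 1, 2 and 3, and no value in the deposited table on array 5. Its 4-array estimate was 0.20 ± 0.13 (SE, 95% interval -0.13 to 0.53, adjusted p = 0.343). With ratios from the scanner intensities, which give it a value on all 5 arrays, the estimate was 0.069 (adjusted p = 0.725).

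The 3 thioredoxins were above 0 on every one of arrays 1 to 3 and lower on arrays 4 and 5. TRX1, a cytosolic thioredoxin, had ratios of -0.31 and -0.02 on arrays 4 and 5 and of 0.33, 0.68 and 0.45 on arrays 1, 2 and 3. TRX2, its paralog and the one known as a Yap1 target, had ratios of -0.15 and 0.19 on arrays 4 and 5 and of 0.40, 0.45 and 0.57 on arrays 1, 2 and 3. TRX3, the mitochondrial thioredoxin, had ratios of -0.44 and -0.35 on arrays 4 and 5 and of 0.15, 0.35 and 0.73 on arrays 1, 2 and 3. For each of these genes the sets did not overlap, as for 58.9% of all genes with 5 values. None passed over the 5 arrays: the estimates were 0.24 ± 0.16 for TRX1, 0.30 ± 0.13 for TRX2 and 0.07 ± 0.20 for TRX3 (SE, adjusted p = 0.359, 0.196 and 0.839). Without array 2 the estimate of TRX1 was 0.067, and without array 5 it was 0.42. By the dye term, the estimate without array 2 rests as much on array 5 as on arrays 1, 3 and 4 together. Without array 5, array 2 takes that place.

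The reductases were positive on all 5 arrays but were strongest in different sets. TRR1, the cytosolic thioredoxin reductase, had ratios of 0.78 and 0.79 on arrays 4 and 5 and of 0.46, 0.04 and 0.21 on arrays 1, 2 and 3. TRR2, the mitochondrial reductase, had ratios of 0.10 and 0.04 on arrays 4 and 5 and of 0.62, 0.55 and 0.43 on arrays 1, 2 and 3. TRR1 was thus highest where TRR2 was near 0. The sets did not overlap for either gene, as for 58.9% of all genes with 5 values. Over the 5 arrays TRR1 was at 0.45 ± 0.15 (SE, 95% interval 0.09 to 0.81, adjusted p = 0.12) and TRR2 at 0.34 ± 0.12 (SE, 95% interval 0.04 to 0.64, adjusted p = 0.143). Without array 5 the estimate of TRR1 was 0.26, and without array 2 that of TRR2 was 0.21, with the same weighting by the dye term.

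The spots of these genes differed in brightness on arrays 4 and 5, where scanner intensities were at hand. The units below are not balanced between the channels, so their quotients differ from the log2 ratios given above. The TSA1 spot had 2172 and 2794 units above background for the RNA labelled 20% on arrays 4 and 5, against 1144 and 1180 for the RNA labelled 2%. AHP1 had 8827 and 3763 units for the RNA labelled 20%, against 4820 and 1550 for the RNA labelled 2%, and TRR1 had 4141 and 4452 against 2656 and 2034. These 3 spots were at least 19.8 times as bright as their background in each channel. The TRX1, TRX2, TRX3 and DOT5 spots were dimmer on both arrays, at 3.03 to 6.11 times background. TRX2, the lowest against its background, had 233 and 234 units above background for the RNA labelled 20% on arrays 4 and 5, against 271 and 180 for the RNA labelled 2%. All 10 genes were above 2 times background in both channels of both arrays, and none of their spots was flagged. On array 5 TSA2 and PRX1 reached into this range in the channel of the RNA labelled 2%, at 4.78 and 5.99 times background. TRX1, TRX3 and DOT5 had negative mean ratios on arrays 4 and 5 and TRX2 a mean of 0.02, while TSA2 was positive on both, and the part of brightness in these ratios was not tested.

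**Figure D2:**
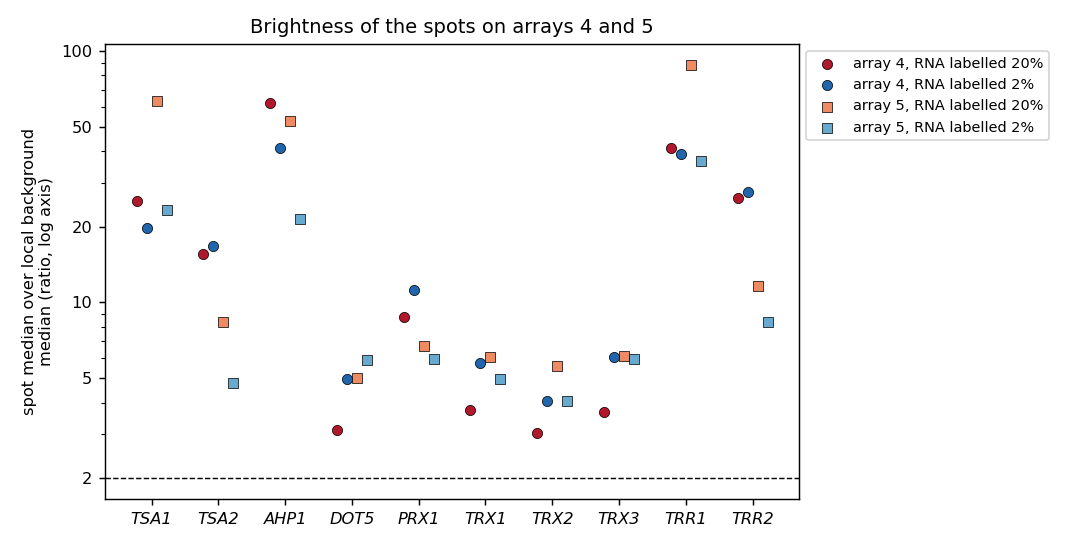
Spot median over local background median (log axis) for the 10 genes on arrays 4 and 5, for the RNA labelled 20% and the RNA labelled 2% glucose, with a dashed line at 2. The TRX1, TRX2, TRX3 and DOT5 spots lie between 3.03 and 6.11, while TSA1, AHP1 and TRR1 lie at 19.8 or above.

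The difference between the sets was tested gene by gene in limma by adding the set of arrays to the model. The split was known from these same ratios, so the p-values are no independent evidence that the sets differ. The difference passed for 3 of the 10 genes, where 12.8% of all genes tested passed. Of these, 1 was higher and 2 were lower on arrays 4 and 5, where 6.61% and 6.17% of all genes were. AHP1 had a higher ratio on arrays 4 and 5, at 0.90 ± 0.04 (SD, n = 2), than on arrays 1 to 3, at -0.24 ± 0.05 (SD, n = 3), a difference of 1.15 (95% interval 0.84 to 1.47, adjusted p = 0.00771). DOT5 had a lower one, at -0.49 ± 0.05 (SD, n = 2) on arrays 4 and 5 and 0.69 ± 0.21 (SD, n = 3) on arrays 1 to 3, a difference of -1.16 (95% interval -1.55 to -0.77, adjusted p = 0.0126). TRX1 was also lower on arrays 4 and 5, at -0.17 ± 0.20 (SD, n = 2), than on arrays 1 to 3, at 0.49 ± 0.18 (SD, n = 3), a difference of -0.70 (95% interval -1.02 to -0.39, adjusted p = 0.0248). In linear terms AHP1 was 1.87-fold higher in the RNA labelled 20% on arrays 4 and 5 and DOT5 was 1.61-fold higher in the RNA labelled 20% on arrays 1 to 3.

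The calls between sets depend on single arrays. The sizes of these 3 differences in the leave-one-out fits are not separate checks. With the dye term, the fits without array 2 and without array 5 both gave array 4 minus the mean of arrays 1 and 3. The fit without array 4 gave array 5 minus array 2. Without array 2 the adjusted p was 0.0616 for AHP1, 0.0555 for DOT5 and 0.216 for TRX1, and without array 4 it was 0.0793, 0.132 and 0.341. Without array 5 the call of TRX1 ended (adjusted p = 0.197). In each of the fits without array 2, 4 or 5 the difference rests on 1 of arrays 4 and 5, which is assumed to vary like the others. Every leave-one-out fit of the set difference had 1 residual degree of freedom per gene. Without array 1, 7 of 9 genes passed, all but TSA1 and TSA2, where 46.8% of all genes did. Over the leave-one-out fits the difference lay between 1.10 and 1.23 for AHP1, between -1.24 and -1.06 for DOT5 and between -0.73 and -0.67 for TRX1.

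TRX3 (-0.80), TRX2 (-0.48), TRR2 (-0.46) and TRR1 (0.58) had adjusted p of 0.0562, 0.0971, 0.0806 and 0.0659 for the set difference. The difference of TRX3 passed with scale normalization (adjusted p = 0.0366), among genes with a value on all 5 arrays (adjusted p = 0.0489) and without array 3 (adjusted p = 0.0296). The difference of TRX2 was -0.26 without array 4. With scanner ratios that of PRX1 was -0.32 (adjusted p = 0.247), against -0.07 in the deposited table. The sets did not overlap for 7 of the 9 genes with 5 values, as for 58.9% of all such genes. The sets overlapped for TSA1 and TSA2, with differences of 0.22 (95% interval -0.26 to 0.70) and 0.14 (95% interval -0.23 to 0.50). The interval of TSA1 still includes a difference as large as that of TRR1. TRX1, TRX3 and DOT5, 3 of the 9, were negative on both of arrays 4 and 5 and positive on each of arrays 1 to 3, as were 9.76% of all such genes. AHP1 had the opposite signs throughout, as did 8.82%.

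**Figure D3:**
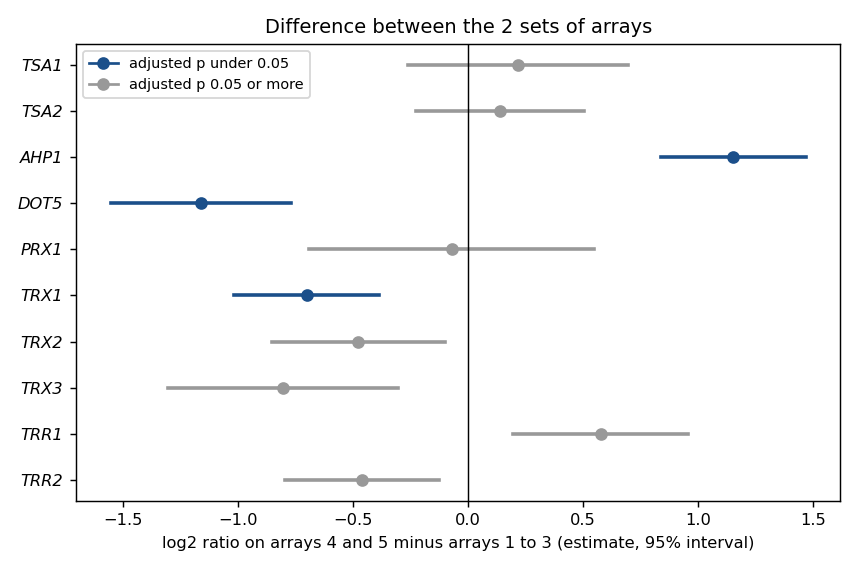
Limma estimate of the log2 ratio on arrays 4 and 5 minus arrays 1 to 3 for each gene, with its 95% interval. AHP1 lies at 1.15, DOT5 at -1.16 and TRX1 at -0.70 with an adjusted p under 0.05 (blue), and the intervals of TSA1, TSA2 and PRX1 include 0.

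Each set was also fitted alone, arrays 4 and 5 without a dye term, which 2 arrays cannot carry, and arrays 1 to 3 with one, so the counts of these fits cannot be set against each other. On arrays 4 and 5, 6 of the 9 genes tested passed, where 54.4% of all genes did, 27.9% as higher and 26.6% as lower. TSA1, AHP1, TRR1 and TSA2 were higher (adjusted p = 0.00114, 0.000993, 0.00125 and 0.00913), and TRX3 and DOT5 were lower (adjusted p = 0.00731 and 0.00415). On arrays 1 to 3, 5 of 10 passed, where 17.4% of all genes did, 11.5% as higher and 5.96% as lower. TSA1, DOT5, TRX1, TRR2 and TRX2 were all higher there (adjusted p = 0.0113, 0.00922, 0.0197, 0.0202 and 0.0345). TSA1 passed as higher in both fits, and DOT5 passed in both with opposite signs. TSA1 averaged 0.84 ± 0.02 (SD, n = 2) on arrays 4 and 5 and 0.58 ± 0.32 (SD, n = 3) on arrays 1 to 3. With so few arrays, these fits borrow most of their error estimate from the other genes.

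With the set of arrays as a block in the 5-array fit, 5 of the 10 genes passed as higher, where 29.7% of all genes passed in either direction, 16.4% as higher and 13.3% as lower. They were TSA1 (0.73 ± 0.10, adjusted p = 0.00571), TRR1 (0.50 ± 0.08, adjusted p = 0.00855), AHP1 (0.33 ± 0.06, adjusted p = 0.0161), TSA2 (0.38 ± 0.07, adjusted p = 0.0168) and TRR2 (0.30 ± 0.07, adjusted p = 0.024), with SE. This fit averages the 2 sets, and for AHP1 the average joins values of opposite sign. TRX2, at 0.26 ± 0.08 (SE, adjusted p = 0.0514), came next.

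Pairs of genes were set against each other within each array, which removes whatever an array's ratios share. The 7 pairs were tested with a two-sided exact sign-flip permutation test over the arrays, whose smallest possible p is 0.0625 with 5 arrays and 0.125 with 4, so no pair could pass. TRR1 minus TRR2 was 0.68 and 0.75 on arrays 4 and 5 and -0.16, -0.51 and -0.22 on arrays 1, 2 and 3, so the cytosolic reductase led in the one set and the mitochondrial one in the other (mean 0.11 ± 0.57, SD, n = 5, exact p = 0.688). TSA1 minus DOT5 was 1.31 and 1.35 on arrays 4 and 5 and -0.34, 0.28 and -0.26 on arrays 1, 2 and 3 (mean 0.47 ± 0.82, SD, n = 5, exact p = 0.375). TSA1 exceeded TSA2 on 4 of 5 arrays, by 0.34 ± 0.30 on average (SD, n = 5, exact p = 0.125).

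TSA1 minus AHP1 was -0.03 and -0.11 on arrays 4 and 5 and 0.43, 1.14 and 0.91 on arrays 1, 2 and 3 (exact p = 0.25). TSA1 and AHP1 thus had almost the same ratio on arrays 4 and 5 and stood apart on arrays 1 to 3. TSA1 exceeded PRX1 on all 4 arrays with both values, by 0.48 ± 0.23 (SD, n = 4, exact p = 0.125). TRX1 minus TRX2 averaged -0.07 ± 0.17 (SD, n = 5, exact p = 0.5), between -0.22 and 0.23. TRX2 minus TRX3 averaged 0.20 ± 0.26 (SD, n = 5, exact p = 0.188). Adjusted over the 7 pairs, p lay between 0.438 and 0.688.

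**Figure D4:**
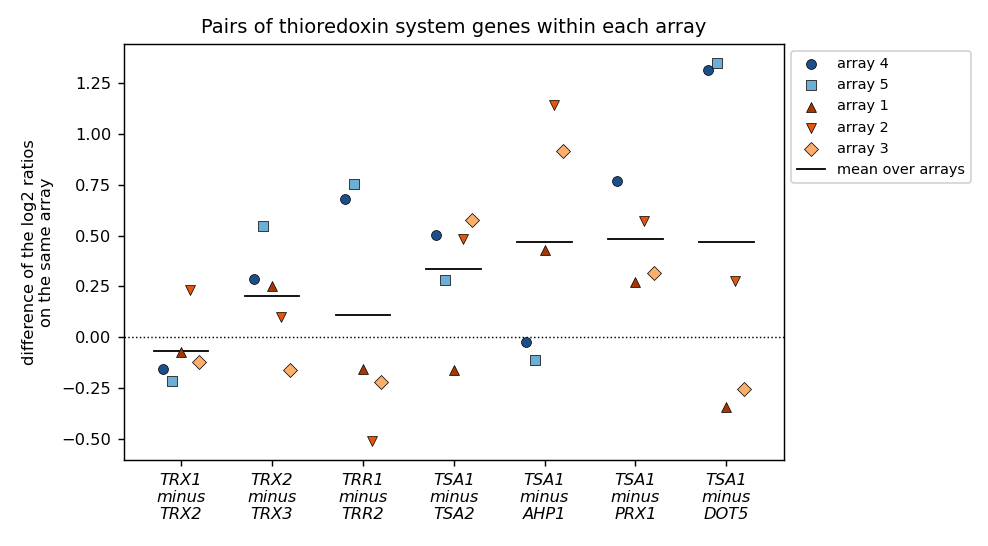
Difference of the log2 ratios of 2 genes on the same array, with the mean over arrays as a line. TRR1 minus TRR2 is positive on arrays 4 and 5 and negative on arrays 1 to 3, TSA1 minus PRX1 is positive on each of its 4 arrays, and TRX1 minus TRX2 stays between -0.22 and 0.23.

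Ordered by the 5-array estimate, TSA1 came first, followed by TRR1, TSA2, TRR2, TRX2, TRX1, AHP1, PRX1, DOT5 and TRX3. TSA1 lay above TRR1 by 0.26, more than the larger SE of both (0.15), and every other step in this order was smaller than the larger SE of its 2 genes. The place of a gene among all genes differed by array. TSA1 stood at percentile 95.3 and 94.5 of all ratios on arrays 4 and 5 and at 76.5, 96.4 and 91.4 on arrays 1, 2 and 3. DOT5 stood at percentile 8.18 and 6.39 on arrays 4 and 5 and at 94.1, 90.9 and 95.5 on arrays 1, 2 and 3, near the bottom of all genes in the one set and near the top in the other. AHP1 stood at 95.6 and 95.5 on arrays 4 and 5 and at 26.7, 15.8 and 25.6 on arrays 1, 2 and 3.

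The genes with the most similar ratios were sought by the root-mean-square distance of the log2 ratios over the 5 arrays. Closest to TSA1 were TRP2 and TRP5, enzymes of tryptophan synthesis, and ISU1, the scaffold of iron-sulfur cluster assembly in mitochondria, at 0.07, 0.08 and 0.09. Closest to TRR1 were SNQ2, a multidrug transporter, REC107, a gene of meiotic recombination, and SWH1, an oxysterol-binding protein homolog, at 0.09, 0.10 and 0.12. Closest to TRX2 were MRPL1, a mitochondrial ribosomal protein, PUP3, a proteasome subunit, and YHR112C, at 0.06, 0.10 and 0.10. These distances describe 5 arrays, and all genes of an array share its RNA and its hybridisation.

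Enzymes that draw on thioredoxin, or repair peroxiredoxins, were described as a list of 9 genes. All 9 had positive estimates, with a median of 0.60, where 50.4% of all genes were positive. Over the 5 arrays 1 passed as higher and 0 as lower, where 2.24% and 1.45% of all genes did. RNR3, a large subunit of ribonucleotide reductase made after DNA damage, rose by 0.63 ± 0.09 on the log2 scale (SE, adjusted p = 0.0422), a call that ended without any 1 of the arrays (adjusted p between 0.0545 and 0.178). The set difference passed for 4 of the 9, where 12.8% of all genes passed. RNR1, the main large subunit of ribonucleotide reductase, was at 0.99 ± 0.03 (SD, n = 2) on arrays 4 and 5 and -0.52 ± 0.28 (SD, n = 3) on arrays 1 to 3, the same direction as AHP1. MXR2, the mitochondrial methionine sulfoxide reductase, was at -0.25 ± 0.04 (SD, n = 2) on arrays 4 and 5 and 1.09 ± 0.31 (SD, n = 3) on arrays 1 to 3. MET16, the thioredoxin-dependent reductase of sulfate assimilation, was at -0.09 ± 0.19 (SD, n = 2) and 1.12 ± 0.24 (SD, n = 3) on the same sets, and GPX1, a peroxidase, at 0.15 ± 0.04 and 0.94 ± 0.14. The adjusted p of these 4 set differences were 0.00771, 0.0161, 0.0197 and 0.0242.

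NADPH is the electron source of the reductases. Of 10 genes listed for its supply, 8 had positive estimates (median 0.42). In the 5-array fit 1 passed as higher and 0 as lower, where 2.24% and 1.45% of all genes did. IDP1, the mitochondrial NADP-dependent isocitrate dehydrogenase, rose by 0.87 ± 0.10 on the log2 scale (SE, adjusted p = 0.0322), with an adjusted p between 0.0493 and 0.158 without 1 array. The set difference passed for 3, all lower on arrays 4 and 5, where 6.17% of all genes passed as lower. ZWF1, the glucose 6-phosphate dehydrogenase, was at 0.31 ± 0.02 (SD, n = 2) on arrays 4 and 5 and 1.28 ± 0.21 (SD, n = 3) on arrays 1 to 3 (adjusted p = 0.0198). SOL3, the lactonase of the next step, was at -0.30 ± 0.05 (SD, n = 2) and 0.92 ± 0.23 (SD, n = 3) on the same sets (adjusted p = 0.0111), and ALD6, the cytosolic aldehyde dehydrogenase, at -1.99 ± 0.03 and 0.71 ± 0.07 (adjusted p = 0.00175).

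The regulators of the system and its further targets were described next. Of 6 redox regulators 3 had positive estimates (median 0.02) and 0 passed over the 5 arrays in limma. An unadjusted p under 0.05 was reached by 3, of both signs, and by 28.5% of all genes tested. YAP1 was at 0.22 ± 0.09 and SKN7 at -0.23 ± 0.08 (SE, adjusted p = 0.177 and 0.15), a pair of genes chosen after their values were seen. MSN2, a general stress factor, was at -1.71 ± 0.22 (SD, n = 2) on arrays 4 and 5 and -0.52 ± 0.14 (SD, n = 3) on arrays 1 to 3 (adjusted p for the set difference 0.0132). Of 6 further Yap1 targets tested, out of 7, ECM4, a glutathione transferase, was higher (0.80 ± 0.13, SE, adjusted p = 0.043) and 0 were lower (median 0.15). Of all genes 2.24% passed as higher and 1.45% as lower. Without 1 array the adjusted p of ECM4 lay between 0.0493 and 0.178. ATR1, a drug efflux pump in that list, was at -2.91 ± 0.14 (SD, n = 2) on arrays 4 and 5 and -0.49 ± 0.11 (SD, n = 3) on arrays 1 to 3 (adjusted p for the set difference 0.00324).

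Of 9 glutathione and glutaredoxin genes 6 had positive estimates (median 0.19) and 0 passed in limma. An unadjusted p under 0.05 was reached by 2, of opposite signs, where 28.5% of all genes reached it. GRX2, a glutaredoxin, was at -0.09 ± 0.03 (SD, n = 2) on arrays 4 and 5 and 0.73 ± 0.18 (SD, n = 3) on arrays 1 to 3 (adjusted p for the set difference 0.0282). Among 6 catalases, superoxide dismutases and the cytochrome c peroxidase, SOD2, the mitochondrial manganese superoxide dismutase, rose by 0.69 ± 0.08 on the log2 scale (SE, adjusted p = 0.0322) and 0 passed as lower (median -0.09). The shares over all genes were 2.24% as higher and 1.45% as lower. Without 1 array the adjusted p of SOD2 lay between 0.0493 and 0.169. CTT1, the cytosolic catalase, was at -0.94 ± 0.07 (SD, n = 2) on arrays 4 and 5 and -0.21 ± 0.22 (SD, n = 3) on arrays 1 to 3 (adjusted p for the set difference 0.0427). Of 6 thioredoxin-fold oxidoreductases of the endoplasmic reticulum 4 had positive estimates (median 0.04) and 0 passed over the 5 arrays in limma. An unadjusted p under 0.05 was reached by 2, against the same 28.5% of all genes. EUG1, a protein disulfide isomerase homolog, was at 0.99 ± 0.17 (SD, n = 2) on arrays 4 and 5 and 0.35 ± 0.04 (SD, n = 3) on arrays 1 to 3 (adjusted p for the set difference 0.0394).

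Markers of stationary phase are genes known to be high in cultures that have run out of glucose. Of 10 such markers 7 were tested, and 5 had a higher ratio on arrays 4 and 5 past the threshold, SNO1, SNZ1, HSP26, GRE1 and SSA3, where 6.61% of all genes did. The set difference was 1.17 for YGP1 (adjusted p = 0.157) and 0.01 for FMP45 (adjusted p = 0.969), which did not pass. The median of the markers was 0.97 and 1.23 on arrays 4 and 5 and -0.24, -0.11 and 0.08 on arrays 1, 2 and 3. Over all 5 arrays 1 marker, FMP45, was lower (-0.84 ± 0.10, SE, adjusted p = 0.0422), where 1.45% of all genes passed as lower. Without 1 array the adjusted p of FMP45 lay between 0.0588 and 0.158. SPG1, SPG4 and SIP18 had a value on fewer than 4 arrays. The part of these markers in the set differences of AHP1, DOT5 and TRX1 was not tested. The set differences that passed for the lists all passed without array 1 and without array 3, where 46.8% and 17.1% of all genes did. Without array 2, where 3.41% of all genes passed, only those of RNR1, ALD6, ATR1, SNO1 and HSP26 did. With the dye term, the difference rests on 1 of arrays 4 and 5 in the fits without array 2, 4 or 5. Some calls of the lists ended in each of these fits, among them that of HSP26 without array 4. Every set difference of the lists that had passed kept its sign there.

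**Figure D5:**
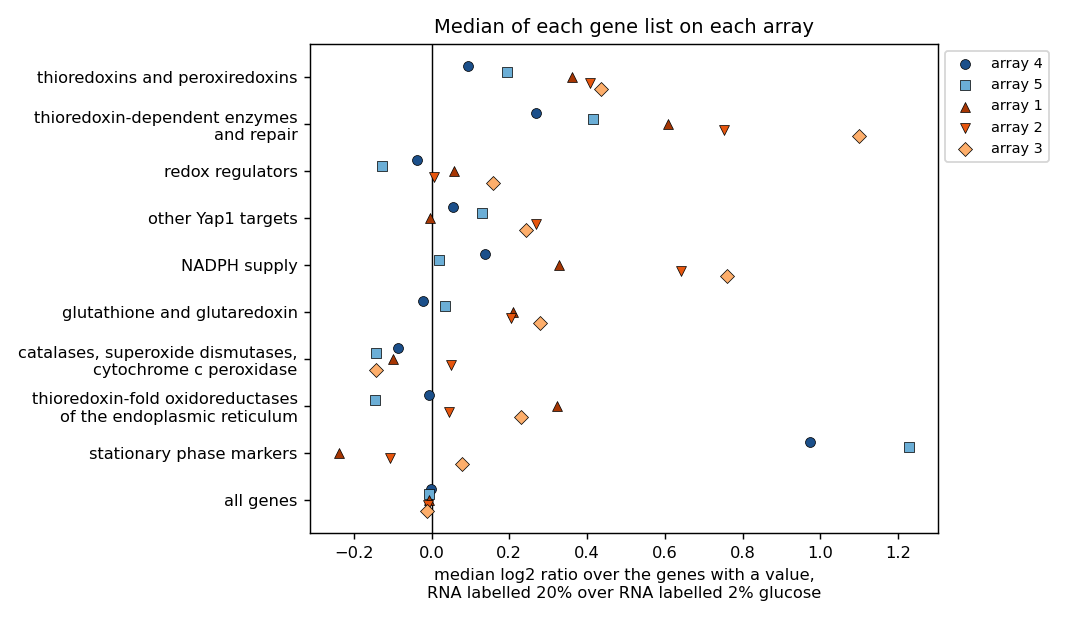
Median log2 ratio of each gene list on each array, over the list's genes with a value, RNA labelled 20% divided by RNA labelled 2% glucose. The thioredoxins and peroxiredoxins lie between 0.09 and 0.44, the stationary phase markers at 0.97 and 1.23 on arrays 4 and 5, and the median of all genes is near 0 on every array.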

How the data were processed

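Per the labels' protocols, RNA was copied into aminoallyl cDNA, to which the dyes were attached. The deposited value table holds log2 ratios of the channels; scanner software, normalization and filters are not given in the sources used here. The deposited scanner files of arrays 4 and 5 hold, per the file headers, the intensity of each spot and its background and its flag, a score of spot quality. Values of 10 or more in size, 258 on array 4 and 262 on array 5, are a decimal slip and were divided by 10. None belongs to the 10 genes. After this the table correlated with the scanner ratios at 0.991 on array 4 (Cy5 over Cy3) and -0.964 on array 5 (Cy3 over Cy5), by the dye labels 2% over 20% on both. All values were multiplied by -1. For arrays 1 to 3, whose scanner values were not used here, the scale and direction were taken to be the same and are not known from their channels. Their medians lie near 0, which does not bear on the direction. Correlations between the sets were positive (0.256 to 0.374), and GPD1, HXT1 and HXT2 each had the same sign on all 5 arrays.

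Ratios were fitted with limma 3.58.1 in R 4.3.3 (lmFit, eBayes, two-sided) for genes with a value on at least 4 arrays, with an intercept for the glucose ratio and a dye term, and Benjamini-Hochberg adjustment over all genes. All 10 genes passed this minimum. The procedure was run on simulated data in which the arrays varied independently. The arrays here fell into 2 sets, so that run does not show how the p-values behave with such sets. Names came from a RefSeq gene table (assembly R64), which pairs 5170 of 6205 ORFs with a symbol other than the ORF identifier. The arrays name no build, so no positions are given, and promoter and protein sequences were not used here. Named genes are the 10 members, GPD1, HXT1 and HXT2, the members of each list past the threshold over the 5 arrays or between the sets (where none was, the 2 with the smallest p), and the 3 closest genes to TRX2, TRR1 and TSA1. YAP1, SKN7 and YGP1 were named after their values were seen. The members and lists were chosen with earlier results of these data known. The number of arrays limits the precision.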

Additional observations from a re-analysis of the deposited data

Results flagged for a closer look

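The log2 ratio of TSA1 on array 1, 0.23, lay apart from the other 4 arrays. Its gap to the next value, divided by the range, exceeded Dixon's critical value of 0.71 for 5 samples. Chance alone flags about 1 in 20 groups, and 32 genes were screened.

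The effect differed between arrays 4 and 5 and arrays 1 to 3, in the limma test of the difference, for 3 of the 10 genes, AHP1 (1.15), DOT5 (-1.16) and TRX1 (-0.70). It did so for 12.8% of all genes tested. Of the thioredoxin-dependent enzymes the differences were 1.55 for RNR1, -1.35 for MXR2, -1.21 for MET16 and -0.77 for GPX1. Of the NADPH genes they were -2.68 for ALD6, -1.25 for SOL3 and -0.94 for ZWF1. Those of the regulator MSN2, the efflux pump ATR1, the glutaredoxin GRX2 and the catalase CTT1 were -1.19, -2.42, -0.83 and -0.74. EUG1 of the endoplasmic reticulum differed by 0.63. Among stationary phase markers SNO1 differed by 2.33, HSP26 by 1.43, SNZ1 by 1.31, GRE1 by 1.26 and SSA3 by 1.06.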

How the results depend on the processing

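The count of genes of the thioredoxin system past the threshold, 1 over the 5 arrays, became 0 with values of 10 or more left as deposited and 0 with scanner ratios on arrays 4 and 5, with 4 at an unadjusted p under 0.05 in limma in each, where 24.6% and 27.3% of all genes were. It became 2 without the dye term, 5 with the set of arrays as a block, 5 on arrays 1 to 3 alone and 6 on arrays 4 and 5 alone. Over all genes the count of 201 became 1, 60, 919, 1618, 901 and 2924 in the same order. In the fits that leave out 1 array each, 0 of the 10 genes passed, with 2 to 5 at an unadjusted p under 0.05 (18.4% to 27.6% of all genes), and 0 to 103 of all genes passed. The set difference passed for 0 to 7 genes of the system in such fits and for 1.99% to 46.8% of all genes, and 1 to 2 of the 7 pairs kept 1 sign on all arrays. The cause of these shifts was not tested.

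On arrays 1 to 3 alone AHP1 was at -0.26, and on arrays 4 and 5 alone TRX1 was at -0.17, TRX3 at -0.39 and DOT5 at -0.49, against positive estimates over 5 arrays. Leaving out 1 array gave -0.10 to 0.25 for TRX3, -0.091 to 0.46 for DOT5 and -0.075 to 0.54 for AHP1, negative without array 2 (TRX3, DOT5), array 3 (TRX3) or array 5 (AHP1). It gave -0.026 to 0.40 for the set difference of TSA1, negative without array 4, and -0.052 to 0.26 for TRR1 minus TRR2, negative without array 4 or 5. By the dye term, a gene's own estimate without array 2 rested as much on array 5 as on arrays 1, 3 and 4 together. Without array 5, array 2 took that place. The calls of RNR3 and FMP45 ended in every leave-one-out fit that tested them, and those of IDP1, SOD2 and ECM4 in 4 of 5. For genes outside the system the alternatives were chosen after seeing the data.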
